A study of Mus musculus with 96 samples.

Results

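The 10 genes described here belong to the circadian clock: the activators Arntl and Npas2, the repressors Per1, Per2, Per3, Cry1 and Ciart, the nuclear receptor Nr1d1, and the output factors Dbp and Tef. They were taken by name from a table of read counts for 48795 genes. All 10 passed the filter on low counts in both tissues, in which 18890 genes were tested in striatum and 18711 in cortex.

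RNA was sequenced from striatum and cerebral cortex of 48 C57BL/6 mice aged 6 months, with both tissues taken from every animal (96 libraries). The 6 genotypes, each with 8 animals (4 females and 4 males), combined a heterozygous Q140 knock-in of Htt with loss of 1 or both copies of Pms1, a mismatch-repair gene of the MutL family. The knock-in carries an expanded CAG repeat and models Huntington disease, in which striatal projection neurons (medium spiny neurons, MSN) are the most affected cells, and the series asks what Pms1 does in that setting. The groups are Q140 X Pms1-/- (called Q140 Pms1 null here), Q140 X Pms1+/- (Q140 Pms1 het), Het (Q140) KI (Q140), Pms1-/- (Pms1 null), Pms1+/- (Pms1 het) and wild type (WT). The labels do not describe how the Pms1 allele was made, and Pms1 RNA was lowered only in part in striatum: it had 3.59 to 4.64 CPM (counts scaled to library size with TMM factors) in Q140 Pms1 null and 3.08 to 4.47 CPM in Pms1 null striatum, against 4.38 to 6.28 CPM in Q140 and 4.89 to 5.85 CPM in WT striatum, while in cortex neither comparison passed (log2 fold change -0.05 against Q140 and -0.10 against WT).

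Library totals lay between 27993751 and 56364535 counts. Each animal has a code such as 21-4. The number before the dash is at least 16, termed a late code here, in every Q140 Pms1 null and Pms1 null animal, and in 1 Q140 Pms1 het, 3 Q140, 0 Pms1 het and 2 WT animals. The sources used here do not say what it stands for, so in the comparisons of these groups with Q140 or WT, loss of both Pms1 copies and the late code can be told apart only through those few animals. They also give neither the hour at which tissue was taken nor the lighting schedule, and the part of either in any result was not tested. Labelled tissues matched their markers: the 10 MSN markers summed to 6778 CPM or more in every striatal library. The 6 markers of the suprachiasmatic nucleus and hypothalamus, the site of the master clock, summed to 1.07 CPM at most in striatum and to between 47.9 and 64.4 CPM in cortex. Nearly all of that cortical sum was Vip (48.9 to 64.1 CPM in WT cortex), which cortical interneurons also express.

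In each cell the clock runs as a loop. Arntl (also called BMAL1) pairs with Clock or its relative Npas2 and binds E-box sequences, switching on the Per and Cry genes, Ciart, Nr1d1 and the PAR-type bZip factors Dbp and Tef. Per and Cry proteins, and Ciart (also called CHRONO), then repress that activator. Nr1d1 (REV-ERB alpha) represses Arntl through RORE sequences, and Dbp and Tef pass the rhythm on through D-box sequences. In striatum Npas2 is prominent, and Per1 is also induced by neuronal activity through cyclic AMP signalling.

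The promoter stretches below are printed because they hold motifs through which clock factors are known to act. They are from RefSeq on GRCm38.p6, printed 5′ to 3′ on the gene's strand, with the motif in capitals. RefSeq windows from 250 bases before to 50 after a gene's start were searched for 9 members (12 entries, as Arntl, Per1 and Tef have more than 1 start) on both strands. Per2 had no entry and was not searched. In every entry but that of Nr1d1, bases just after the start were found in a transcript of the gene. The E-box CACGTG was found in 5 of 12 entries and in 7.15% of all 32851 promoters. The first 5 lines are these entries (Ciart chr3:95882237-95882374 minus, Per1 chr11:69098753-69098818 plus, Cry1 chr10:85185079-85185144 minus, and both starts of Tef, chr15:81802516-81802581 plus and chr15:81811246-81811311 plus). The D-box TTATGTAA was found only in the Per3 entry (chr4:151044786-151044900 minus) and in 0.938% of all promoters, and the D-box form TTACGTAA in 0 entries and 0.119% of all. The core RORE motif TAGGTCA was found only just after the second start of Arntl (chr7:113207530-113207558 plus) and in 2.61% of all promoters. No entry held more than 1 kind of these motifs, so none of the matches overlap.
Ciart: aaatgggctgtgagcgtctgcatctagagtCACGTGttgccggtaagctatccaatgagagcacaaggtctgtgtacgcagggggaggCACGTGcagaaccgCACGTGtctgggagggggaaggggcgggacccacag
Per1: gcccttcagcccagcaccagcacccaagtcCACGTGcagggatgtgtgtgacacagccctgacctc
Cry1: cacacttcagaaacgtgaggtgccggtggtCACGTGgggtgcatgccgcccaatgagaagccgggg
Tef, first start: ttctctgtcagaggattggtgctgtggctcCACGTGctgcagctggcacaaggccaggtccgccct
Tef, second start: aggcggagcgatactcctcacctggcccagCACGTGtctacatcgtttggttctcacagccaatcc
Per3: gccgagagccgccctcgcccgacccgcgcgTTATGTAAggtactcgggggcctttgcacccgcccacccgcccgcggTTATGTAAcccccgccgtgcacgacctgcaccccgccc
Arntl: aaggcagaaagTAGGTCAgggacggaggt
Ciart holds 3 E-boxes and Per3 holds 2 D-boxes within the printed stretches. A match is a description of letters and shows no binding.

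Levels between genes are given as the authors' FPKM values, which are per length. In WT striatum Dbp (81.8 ± 6.39 FPKM, SD, n = 8) and Tef (81.3 ± 3.75 FPKM) stood highest and did not differ beyond their spread. Per1 (47.8 ± 4.01 FPKM) and Nr1d1 (46.5 ± 4.20 FPKM) formed the next pair, again within their spread. Per2 (20.6 ± 3.14 FPKM), Ciart (16.6 FPKM), Npas2 (15.4 FPKM) and Cry1 (13.0 FPKM) followed, each neighbour closer than the sum of the SDs. Per3 (9.67 FPKM) and Arntl (4.79 FPKM) were lowest, each separated from the gene above it by more than the sum of the SDs. In WT cortex the order was Nr1d1 (63.0 ± 2.49 FPKM), Tef (59.9 FPKM), Per1 (43.7 FPKM), Dbp (40.6 FPKM), Per2 (15.2 FPKM), Ciart (14.5 FPKM), Per3 (9.18 FPKM), Cry1 (8.67 FPKM), Npas2 (8.52 FPKM) and Arntl (4.96 FPKM). Of these neighbours, Nr1d1 and Tef, Per1 and Dbp, Per2 and Ciart, Per3 and Cry1, and Cry1 and Npas2 did not differ beyond the sum of their SDs in cortex.

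Between the tissues of WT mice, 6 members were higher in striatum and 1 was lower, against 38.5% and 37.5% of 19723 genes tested over all libraries. Dbp differed most: it had 217, 254 and 278 CPM (lowest, median, highest) in WT striatum, against 99.3, 128 and 138 CPM in WT cortex, a log2 difference of 1.01 ± 0.06 (edgeR adjusted p 2.6e-30), where ± on the log2 scale is the SE throughout. Npas2, the partner of Arntl, was higher by 0.86 ± 0.05 on the log2 scale (edgeR adjusted p 4.2e-30). Cry1 (0.59), Tef (0.45), Per2 (0.45) and Ciart (0.20) were also higher in striatum. Of these, only Ciart lost its call in other settings, in 2 of 5 (library totals, and limma on log2(FPKM + 0.1)). Nr1d1, the repressor of Arntl, was lower in striatum, with 133, 142 and 164 CPM in WT striatum and 178, 196 and 203 CPM in WT cortex (log2 difference -0.43 ± 0.05, edgeR adjusted p 1.2e-11). Arntl itself was at a like level, 36.9 ± 5.59 CPM in striatum and 37.4 ± 1.92 CPM in cortex (SD, n = 8 each). With the animal as a block, which uses the pairing of the tissues, Per1 (0.13, edgeR adjusted p 0.0039) and Per3 (0.08, edgeR adjusted p 0.023) were also called higher in striatum.

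**Figure D1:**
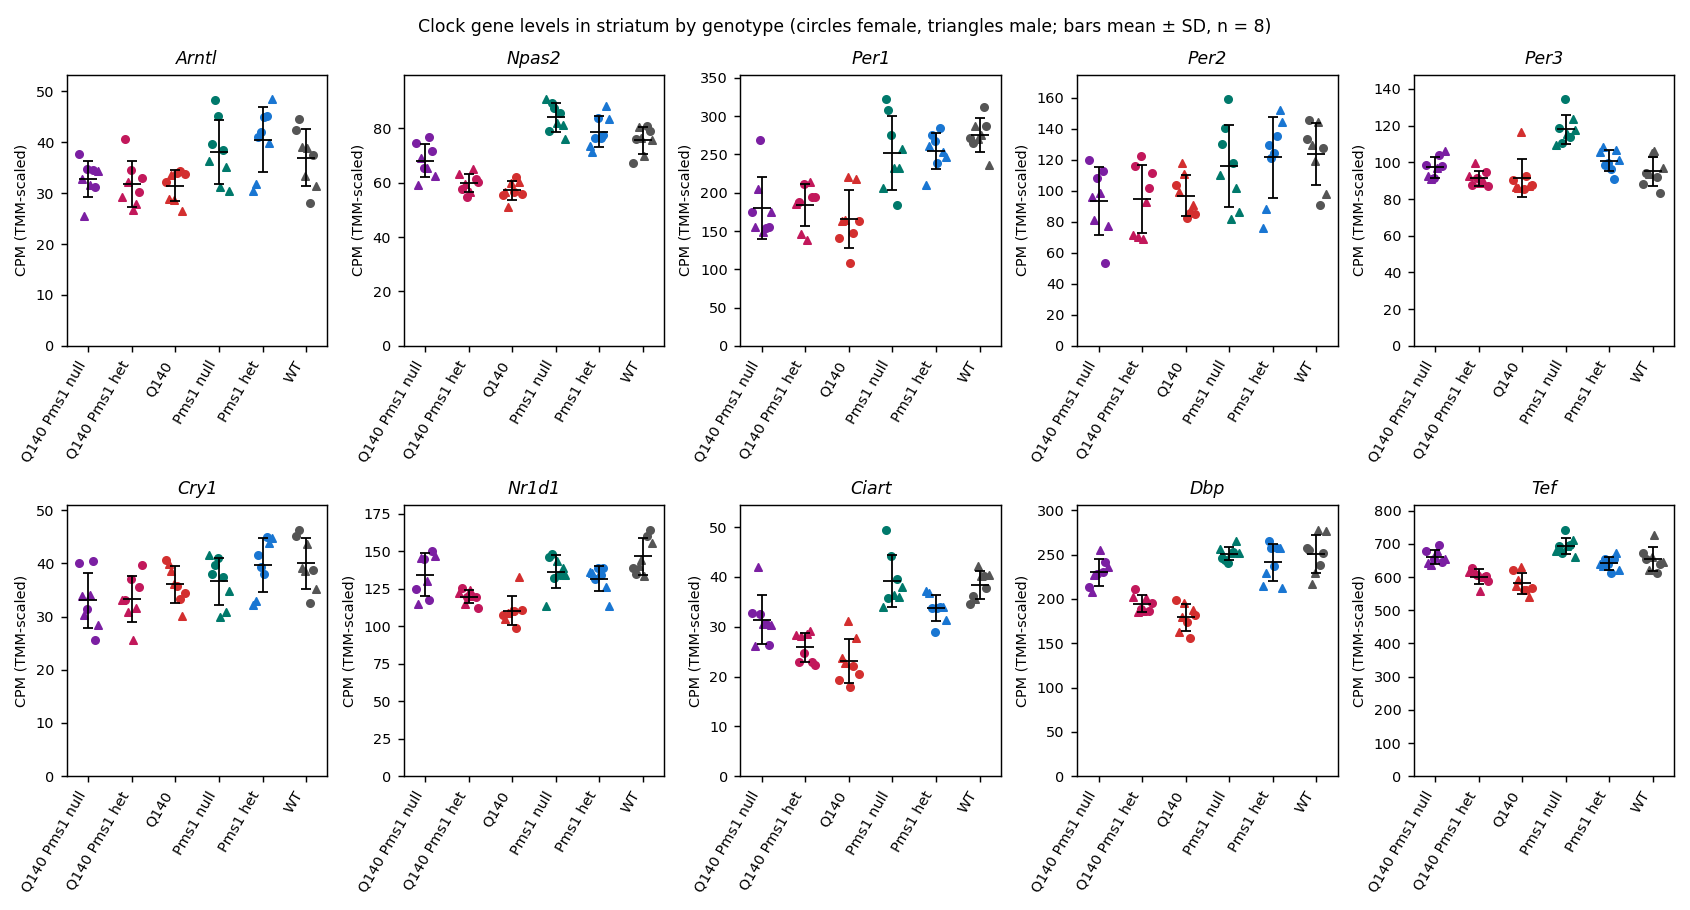
Level of each of the 10 genes in striatum, in TMM-scaled CPM on axes from 0, by genotype; each point is 1 animal (circles female, triangles male) and the bars are the mean and SD of 8 animals. Ciart, Per1, Dbp, Npas2 and Nr1d1 show Q140 points that lie below every WT point, such as 18.0 to 31.1 CPM in Q140 and 34.5 to 42.2 CPM in WT for Ciart. The share of all genes that separate in this way is not given.

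In striatum, 7 of the 10 genes were lower in Q140 than in WT mice and 0 were higher, and all 10 estimates lay below 0. The share of all tested genes called lower in this comparison was 15.4%, and the median log2 fold change was -0.37 over the members and 0.01 over all genes. Ranges that do not overlap are described here and below without the share of all genes that separate so, which is not given. These tissues are bulk samples, so fewer cells of a type and less RNA per cell cannot be told apart.

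The largest differences were in 2 repressors of the loop, Ciart and Per1. Ciart had 18.0, 22.4 and 31.1 CPM (lowest, median, highest) in Q140, against 34.5, 39.0 and 42.2 CPM in WT striatum. The groups did not overlap, and the log2 fold change was -0.74 ± 0.09 (edgeR adjusted p 2.9e-09). Per1 had 108, 163 and 220 CPM in Q140, against 236, 273 and 312 CPM in WT striatum. Again no Q140 animal reached a WT animal (log2 fold change -0.73 ± 0.12, edgeR adjusted p 8.2e-06). Per2 had 82.7, 94.9 and 118 CPM in Q140 and 91.2, 129 and 146 CPM in WT striatum. Those groups overlapped and Per2 did not pass (-0.34 ± 0.14, edgeR adjusted p 0.067). Cry1 (-0.15 ± 0.09) and Per3 (-0.05 ± 0.05) did not pass.

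Both activators were lower. Npas2 had 51.0, 56.5 and 62.2 CPM in Q140, against 67.1, 76.2 and 80.9 CPM in WT striatum, with no overlap (log2 fold change -0.40 ± 0.05, edgeR adjusted p 2.5e-09). Arntl overlapped widely, with 26.5, 32.8 and 34.4 CPM in Q140 and 28.1, 38.2 and 44.6 CPM in WT striatum. It passed narrowly (-0.23 ± 0.08, edgeR adjusted p 0.029) and failed in 7 of 12 other settings and in 5 of 16 fits that each left out 1 animal.

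The output factors and Nr1d1 were lower as well. Dbp had 156, 181 and 199 CPM in Q140, against 217, 254 and 278 CPM in WT striatum, with no overlap (-0.48 ± 0.05, edgeR adjusted p 8.4e-11). Tef, its relative, moved less: 541 to 631 CPM in Q140 and 612.5 to 727 CPM in WT striatum (-0.17 ± 0.03, edgeR adjusted p 7.5e-06). Nr1d1 had 98.6, 109 and 133 CPM in Q140 and 133, 142 and 164 CPM in WT striatum (-0.41 ± 0.06, edgeR adjusted p 1.2e-07). The highest Q140 animal, 8-2, stood just under the lowest WT animal for Nr1d1. Exons of Dbp share 18.0% of their bases with Sphk2 and those of Nr1d1 share 8.55% with Thra, both on the opposite strand, and the sources used here do not state whether counting used the strand. Sphk2 went the other way from Dbp (0.23 ± 0.04, edgeR adjusted p 1.4e-05), and Thra did not pass (-0.04 ± 0.03).

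The early-coded animals (5 Q140 and 6 WT) gave 9 members lower, with Per2 (-0.63, edgeR adjusted p 0.0061) and Cry1 (-0.34, edgeR adjusted p 0.0072) added and Per3 not passing. The sexes were unevenly split among these animals, and the fit had sex as a term. The late-coded animals of these groups are 3 Q140 males and 2 WT females and were not compared. By sex, 6 members passed in males and 6 in females, Arntl failing in each. For the early-coded fit and the fits by sex, the share of all genes called lower is not given here, so these counts have no background. Per1 differed by -0.48 in males and -1.02 in females. Ciart differed by -0.59 in males and -0.90 in females. The late-coded animals were Q140 in males and WT in females, so sex and code class cannot be told apart in these values. The difference between the sexes passed for 0 of 10 members and 0 of 18890 genes (0%) by edgeR, with Per1 and Ciart below an unadjusted p of 0.05 and 0 members called by DESeq2.

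**Figure D2:**
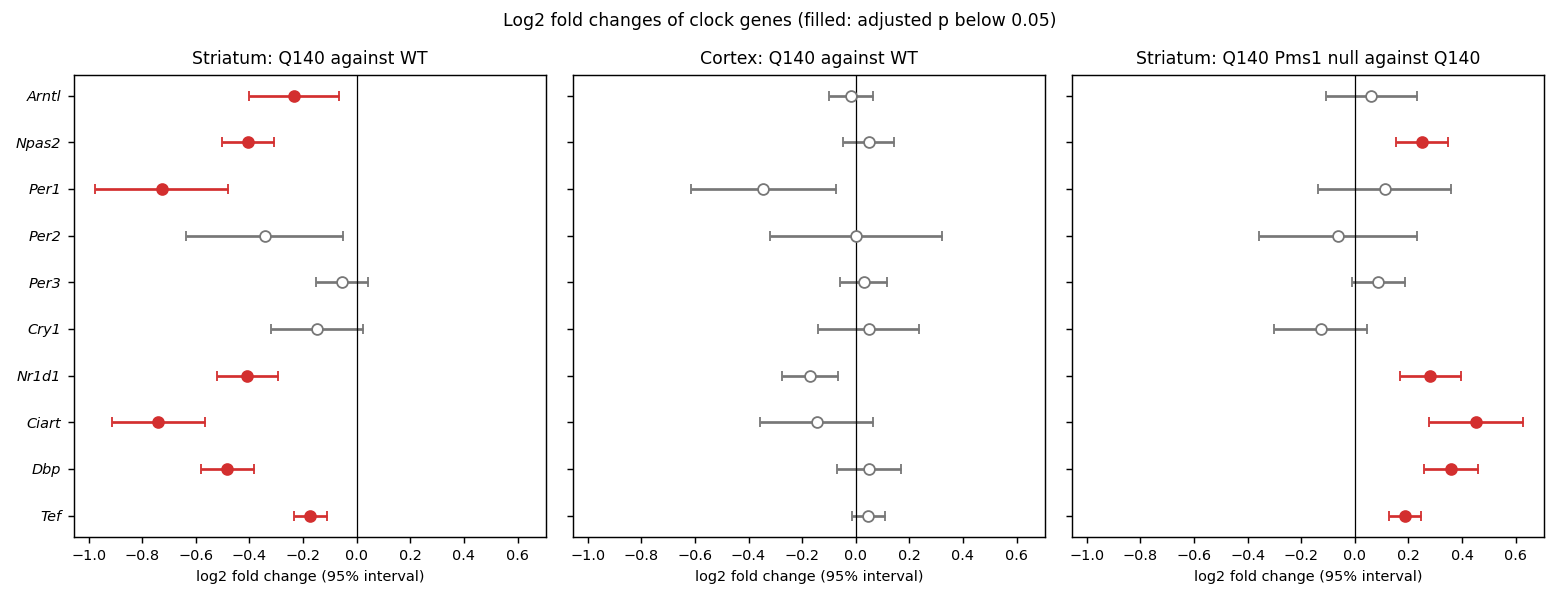
Log2 fold change of each member with its 95% interval, for Q140 against WT in striatum (left), the same in cortex (middle) and Q140 Pms1 null against Q140 in striatum (right); filled red points have an adjusted p below 0.05. The left panel has 7 filled points, all below 0, the middle panel has 0, and the right panel has 5, all above 0.

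Other parts of the clock machinery changed unevenly with the knock-in. Of 10 further core clock genes, 4 were lower in Q140 striatum and 1 was higher, where 15.4% of all genes were lower and 15.9% higher. Hlf, the third PAR-type bZip factor beside Dbp and Tef, fell to 264.8 ± 16.1 CPM in Q140, against 330 ± 20.3 CPM in WT striatum (-0.32 ± 0.04, edgeR adjusted p 3.7e-10). Bhlhe40 (-0.51) and Bhlhe41 (-0.21), which repress from E-boxes, and Cry2 (-0.14), the relative of Cry1, also fell. Nfil3, which competes with Dbp, Tef and Hlf for D-boxes, rose (0.26 ± 0.09, edgeR adjusted p 0.021). Clock (-0.05 ± 0.02) and Nr1d2 (-0.07 ± 0.03), the relatives of Npas2 and Nr1d1, did not pass. Among genes that set the lifetime of Per and Cry proteins, Fbxl21 fell (-0.38) and Csnk1d rose (0.05). Of 5 rhythmic output genes, Nampt (-0.19) and Usp2 (-0.17) fell and Tspan4 rose (0.28).

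Markers of cell identity and activity moved with the clock genes. The MSN list had 9 of 10 members lower and 1 higher, and its summed level was 6778 to 7858 CPM in Q140 and 11135 to 12513 CPM in WT striatum, with no overlap. Of 9 immediate-early genes, which neuronal activity induces, 6 fell, among them Arc (-1.03), Nr4a1 (-1.07), Egr1 (-0.88) and Junb (-0.81). Their sum was 337 to 1313 CPM in Q140 and 1059 to 1692 CPM in WT striatum. Lists of other cells moved too. Of 5 microglial markers 3 were lower, with sums of 196 to 226 CPM in Q140 and 225 to 245 CPM in WT striatum. Of 5 endothelial and mural markers 3 were also lower, with sums of 210.2 to 241 CPM in Q140 and 239 to 265 CPM in WT striatum. Fewer changed in the remaining lists: 0 of 5 astrocyte markers, 1 of 5 oligodendrocyte markers (lower), 2 of 5 thalamic markers (lower), 2 of 6 cortical glutamatergic markers (higher) and 1 of 4 choroid plexus markers tested (higher). The part of any of these lists in the clock gene differences was not tested. Across the 48 striata, the deviations of Per1 from its genotype and sex means followed those of the immediate-early sum (Pearson r 0.77, Spearman rho 0.73, permutation p 1e-05 for each, adjusted 0.00043 and 0.00033 over 130 relations). The r was 0.72 without the 2 animals farthest out, 0.66 in early-coded and 0.81 in late-coded animals, and 0.77 in cortex over all animals (rho 0.69, permutation p 1e-05 for each). Dbp followed the MSN sum in striatum (r 0.61, permutation p 2e-05, adjusted 0.00065, and rho 0.65, permutation p 1e-05, adjusted 0.00033). Its r was 0.56 without the 2 farthest animals, 0.69 in early-coded and 0.50 in late-coded animals. In cortex the same r was 0.11 (permutation p 0.46). Only these 2 of the 130 striatal relations are described, and their adjusted p-values imply that others had permutation p-values as small. Whether either relation is particular to its gene was not tested. Permutation p-values here and below come from shuffling deviations after genotype and sex means were removed, and are too small for that reason.

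The knock-in was also compared within the other Pms1 backgrounds. In Q140 Pms1 het against Pms1 het striatum, 8 members were lower and 0 higher (12.1% of all genes lower), and in Q140 Pms1 null against Pms1 null striatum 4 were lower and 0 higher (5.47% of all genes lower). Nearly all animals of the first comparison are early-coded and all of the second are late-coded. Npas2, Per1, Per3 and Ciart were lower in both. Under library totals and under both FPKM settings 5 members passed in Q140 Pms1 het against Pms1 het. Per3 (-0.09, edgeR adjusted p 0.15), Cry1 (-0.21, edgeR adjusted p 0.053) and Tef (-0.04, edgeR adjusted p 0.26) did not pass under library totals. Per1 had 138 to 214 CPM in Q140 Pms1 het against 210.5 to 285 CPM in Pms1 het striatum (-0.47 ± 0.12, edgeR adjusted p 0.0035). It had 149 to 269 CPM in Q140 Pms1 null against 184 to 322 CPM in Pms1 null striatum (-0.49 ± 0.12, edgeR adjusted p 0.0066). In each background the Per1 ranges of the 2 groups overlapped. Per3, a repressor-type Per protein that did not pass in Q140 against WT, fell to 90.7, 97.4 and 106 CPM in Q140 Pms1 null, against 109.6, 117 and 134 CPM in Pms1 null striatum (-0.28 ± 0.05, edgeR adjusted p 5.4e-05). Those Per3 groups did not overlap, and the same 8 Pms1 null animals enter the comparison with WT further on. Averaged over the 3 backgrounds, all 10 members were lower with the knock-in (20% of all genes lower), from Per1 (-0.56 ± 0.07) and Ciart (-0.48 ± 0.05) to Tef (-0.11 ± 0.02).

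Loss of both Pms1 copies in knock-in mice came with higher levels of 5 members in striatum: Ciart, Dbp, Nr1d1, Npas2 and Tef, and 0 were lower. Of all genes, 5.07% were called higher. These were 71.4% of the genes called, against 29.0% under library totals, where the same 5 members passed. This comparison shares its 8 Q140 animals with that of Q140 against WT, so values of the 2 are given side by side and not as separate evidence. Dbp had 208, 229.5 and 255 CPM in Q140 Pms1 null, against 156, 181 and 199 CPM in Q140 striatum. The groups did not overlap (log2 fold change 0.36 ± 0.05, edgeR adjusted p 2.1e-06), and Dbp had 217 to 278 CPM in WT. Ciart had 26.2, 30.5 and 42.0 CPM in Q140 Pms1 null, against 18.0, 22.4 and 31.1 CPM in Q140 striatum (0.45 ± 0.09, edgeR adjusted p 0.00041). Nr1d1 had 115, 137 and 150 CPM in Q140 Pms1 null, against 98.6, 109 and 133 CPM in Q140 striatum (0.28 ± 0.06, edgeR adjusted p 0.00059). The ranges of Ciart and Nr1d1 overlapped between the groups. Npas2 had 59.0, 67.3 and 76.6 CPM in Q140 Pms1 null, against 51.0, 56.5 and 62.2 CPM in Q140 striatum, with some overlap (0.25 ± 0.05, edgeR adjusted p 0.00034). Tef had 635 to 697.5 CPM in Q140 Pms1 null, against 541 to 631 CPM in Q140 striatum, with no overlap (0.19 ± 0.03, edgeR adjusted p 1.9e-05). Per1, which was 0.73 lower on the log2 scale in Q140 than in WT, had 149, 165 and 269 CPM in Q140 Pms1 null, against 108, 163 and 220 CPM in Q140 striatum, and did not pass (0.11 ± 0.12, edgeR adjusted p 0.68). Per2 (-0.06 ± 0.15), Per3 (0.09 ± 0.05), Cry1 (-0.13 ± 0.09) and Arntl (0.06 ± 0.08) did not pass.

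Among late-coded animals alone (8 Q140 Pms1 null against 3 Q140), only Dbp passed (0.38 ± 0.05, edgeR adjusted p 0.0026). The estimates of Nr1d1 (0.30, edgeR adjusted p 0.13), Npas2 (0.23, edgeR adjusted p 0.087), Tef (0.13, edgeR adjusted p 0.14) and Ciart (0.25, edgeR adjusted p 0.54) were above 0 and did not pass. With the late code as a term in the fit over all 48 striata, all 5 passed, with Ciart at 0.37 (edgeR adjusted p 0.019). Other genes moved beside them: 9 of 10 MSN markers were higher in Q140 Pms1 null, with a summed level of 8020 to 9734 CPM against 6778 to 7858 CPM in Q140 striatum, and 0 of 9 immediate-early genes passed, with sums of 355 to 1306 CPM and 337 to 1313 CPM. Of the further clock genes, Hlf was higher (0.16 ± 0.04, edgeR adjusted p 0.0023) and Nfil3 lower (-0.29 ± 0.09, edgeR adjusted p 0.042). Usp2 (0.22) and Fbxl21 (0.30) were higher. Sphk2, which overlaps Dbp, was lower (-0.20 ± 0.04). With 1 Pms1 copy lost in knock-in striatum, 0 members and 0 genes (0%) passed by edgeR, 0 members by DESeq2, and Dbp (0.12) and Nr1d1 (0.12) had an unadjusted p below 0.05.

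The difference between the knock-in effect in Pms1 null and in mice with both Pms1 copies was tested directly. It passed for 4 members: 3 higher (3.37% of all genes) and 1 lower (1.68% of all genes). The higher genes were 66.8% of those called. Under library totals they were 26.8%, with 1.94% of all genes higher and 5.31% lower. Nr1d1 differed by 0.38 ± 0.08 (edgeR adjusted p 0.0017): its knock-in effect was -0.02 in Pms1 null and -0.41 in mice with both copies. Dbp differed by 0.36 ± 0.07 (edgeR adjusted p 0.0011), from effects of -0.13 in Pms1 null and -0.48 with both copies. Ciart differed by 0.42 ± 0.12 (edgeR adjusted p 0.032), with effects of -0.32 and -0.74 in the same order. Per3 went the other way (-0.23 ± 0.07, edgeR adjusted p 0.041), with effects of -0.28 in Pms1 null and -0.05 with both copies. The Per3 call was lost in 13 of 32 fits that left out 1 animal and in 3 of 9 other settings. The Ciart call was lost in 6 of 32 such fits and in 2 of 9 other settings, library totals (0.37, edgeR adjusted p 0.051) and no filter (0.42, edgeR adjusted p 0.059). Nr1d1 and Dbp kept their calls in all of them. Without the Q140 Pms1 null animal 21-4 or the Pms1 null animal 44-2 only 2 members passed. Per1 (0.24 ± 0.17) and Npas2 (0.10 ± 0.07) did not pass. For loss of 1 copy, 0 members and 0 genes (0%) passed by edgeR and 0 members by DESeq2, with Dbp, Nr1d1 and Ciart below an unadjusted p of 0.05.

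Without the knock-in, Per3 was called higher in Pms1 null than in WT mice in both tissues, and the call in cortex was lost with the late code as a term in the fit. In striatum 2 members were higher than in WT and 0 lower (4.01% of all genes higher). Per3 had 109.6, 117 and 134 CPM in Pms1 null, against 83.4, 94.0 and 106 CPM in WT striatum, with no overlap (0.31 ± 0.05, edgeR adjusted p 0.00015). In cortex Per3 had 97.7, 103 and 109 CPM in Pms1 null, against 78.4, 87.3 and 99.6 CPM in WT (0.22 ± 0.04, edgeR adjusted p 0.0012). Npas2 was slightly higher in Pms1 null striatum, with 76.2 to 90.7 CPM against 67.1 to 80.9 CPM in WT (0.15 ± 0.05, edgeR adjusted p 0.041), and lost that call in 10 of 16 fits that left out 1 animal. Npas2 lies 13.8 Mb and Per2 38.1 Mb from Pms1 on chromosome 1. Nr1d1 was lower in Pms1 null cortex, with 150, 173 and 178 CPM against 178, 196 and 203 CPM in WT (-0.22 ± 0.05, edgeR adjusted p 0.0067). The highest Pms1 null and the lowest WT animal had nearly the same Nr1d1 level in cortex, where 5.31% of all genes were higher and 4.26% lower.

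These Pms1 null calls compare 8 late-coded animals with 2 late-coded and 6 early-coded WT animals. With the late code as a term, Per3 kept its call in striatum (0.30, edgeR adjusted p 0.0050). Under it 3 calls were lost: Per3 in cortex (0.14, edgeR adjusted p 0.13), Nr1d1 in cortex (-0.17, edgeR adjusted p 0.15) and Npas2 in striatum (0.14, edgeR adjusted p 0.22). Against the 2 late-coded WT animals alone, Per3 passed in striatum (0.44, edgeR adjusted p 0.048) and not in cortex (0.20, edgeR adjusted p 0.090). Npas2 in striatum (0.12) and Nr1d1 in cortex (-0.20) did not pass there, and Tef in cortex did (0.22, edgeR adjusted p 0.014). Glucocorticoid-responsive genes moved in the same samples: 6 of 10 were higher in Pms1 null striatum, with a sum of 346 to 627 CPM against 274 to 441 CPM in WT, and 3 of 10 in Pms1 null cortex (Plin4, Fkbp5 and Sult1a1). Their part in the Per3 and Nr1d1 results was not tested. With 1 copy lost, 0 members and 0 genes (0%) passed against WT by edgeR in either tissue, 0 members passed by DESeq2, and Nr1d1 and Ciart in striatum and Arntl, Npas2 and Ciart in cortex had an unadjusted p below 0.05.

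**Figure D3:**
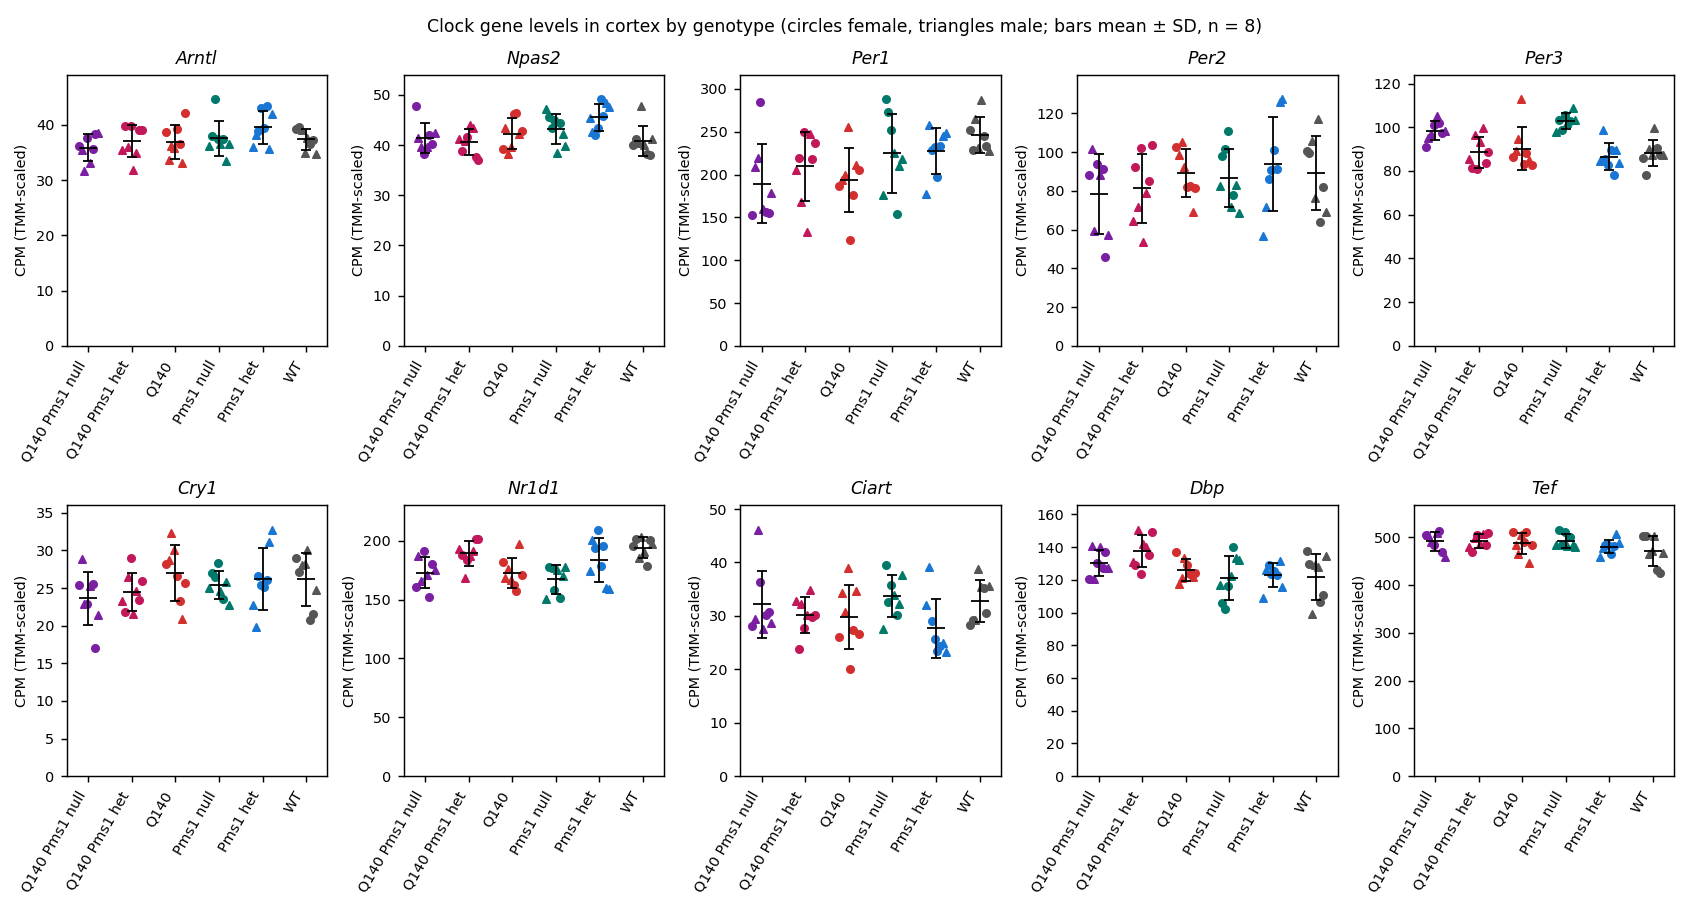
Level of each of the 10 genes in cortex, in TMM-scaled CPM on axes from 0, by genotype, drawn as for striatum (points are animals, bars the mean and SD of 8). Q140 and WT points overlap for every gene, such as 118 to 137 CPM in Q140 and 99.3 to 138 CPM in WT for Dbp, and Per3 is higher in Pms1 null than in WT.

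In cortex the knock-in gave 0 member calls against WT by edgeR, where 8 genes in all (0.0428%) passed, and 0 by DESeq2. Per1 had 123, 197 and 256 CPM in Q140 and 227, 239 and 287 CPM in WT cortex (-0.35 ± 0.13, edgeR adjusted p 0.52). Nr1d1 had 158, 170 and 197 CPM in Q140 and 178, 196 and 203 CPM in WT cortex (-0.17 ± 0.05, edgeR adjusted p 0.32). These were the members with an unadjusted p below 0.05, and the groups of both overlapped. Dbp, which was lower by 0.48 in Q140 striatum, averaged 126 ± 6.60 CPM in Q140 and 122 ± 14.3 CPM in WT cortex (0.05 ± 0.06). Ciart had 20.1 to 39.0 CPM in Q140 and 28.3 to 38.7 CPM in WT cortex (-0.15 ± 0.10). Over the 3 backgrounds 0 members passed in cortex (1.73% of all genes), 0 by DESeq2, with Per1 at -0.24 ± 0.08 (edgeR adjusted p 0.11) and Dbp at 0.11 ± 0.03 (edgeR adjusted p 0.10), and Arntl, Npas2, Per1 and Dbp below an unadjusted p of 0.05. In 1 cortex library each of Q140, Pms1 null and Q140 Pms1 null, choroid plexus markers reached 738, 595 and 590 CPM, where the group medians were at most 5.45 CPM. edgeR made 0 member calls in Q140 Pms1 het against Pms1 het cortex (0.112% of all genes) and in Q140 Pms1 null against Pms1 null cortex (0.0428%), with 3 and 0 members below an unadjusted p of 0.05. DESeq2 called 1 and 0 there. edgeR also made 0 member calls in Q140 Pms1 null against Q140 cortex (0.0107% of all genes), with Per3 (0.13) and Cry1 (-0.19) below an unadjusted p of 0.05, and in Q140 Pms1 het against Q140 cortex (0%), with Dbp (0.13) and Nr1d1 (0.13) below it, and DESeq2 made 0 member calls in either. The difference of the knock-in effect by Pms1 copies passed for 0 members and 0 genes (0%) in cortex by edgeR and 0 members by DESeq2, with Nr1d1 (0.22 for both copies lost) below an unadjusted p of 0.05.

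Whether the knock-in effect differed between tissues was tested over all 96 libraries. It passed for 5 members, all with a lower value in striatum (8.32% of all genes lower): Ciart (-0.61 ± 0.14, edgeR adjusted p 0.00051), Dbp (-0.54 ± 0.08), Npas2 (-0.47 ± 0.07), Nr1d1 (-0.25 ± 0.08, edgeR adjusted p 0.016) and Tef (-0.23 ± 0.04). Nr1d1 did not pass in 3 of 5 other settings, library totals (-0.17, edgeR adjusted p 0.13) and both FPKM settings (-0.16, limma adjusted p 0.14 in each). Of all genes called, 37.3% were higher with TMM and 79.8% under library totals. With the animal as a block (both tissues of an animal paired), 9 members passed, all but Per3. The 8.32% of all genes is from the fit without the block, and the share with the block is not given here. Per1 then differed by -0.41 ± 0.06 (edgeR adjusted p 9.7e-07) and Per2 by -0.37 ± 0.07 (edgeR adjusted p 4.3e-05). The striatum to cortex ratio of each animal can also be read without a model. For Per1 its log2 was -0.40, -0.25 and 0.05 (lowest, median, highest) in Q140 and -0.06, 0.16 and 0.35 in WT mice. For Dbp it was 0.33, 0.54 and 0.62 in Q140 and 0.83, 1.08 and 1.19 in WT mice. For Npas2 it was 0.29, 0.42 and 0.59 in Q140 and 0.68, 0.88 and 1.08 in WT mice. The ratios of Dbp and Npas2 did not overlap between Q140 and WT, and those of Per1 did. In Q140 Pms1 null mice the log2 ratio of Dbp was 0.56, 0.84 and 0.91. Averaged over the 3 Pms1 backgrounds, the difference between tissues passed for 8 members (11.7% of all genes lower), not for Per2 or Cry1. With the animal as a block all 10 passed, Per2 at -0.23 (edgeR adjusted p 8.1e-06) and Cry1 at -0.14 (edgeR adjusted p 0.00062). Here too the 11.7% of all genes is from the fit without the block.

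Sex made a small difference to Arntl. In striatum Arntl had 25.6, 31.7 and 48.5 CPM in males and 28.1, 37.6 and 48.3 CPM in females (n = 24 each), a log2 difference of -0.21 ± 0.05 (edgeR adjusted p 0.0070), the 1 member called (3.31% of all genes lower in males). In cortex Arntl averaged 35.7 ± 2.37 CPM in males and 39.1 ± 2.30 CPM in females (-0.13 ± 0.02, edgeR adjusted p 0.00038, 2.61% of all genes lower). Per3 averaged 95.2 ± 7.94 CPM in males and 89.7 ± 8.54 CPM in females in cortex (0.09 ± 0.03, edgeR adjusted p 0.027, 2.74% of all genes higher). The sexes overlapped in each case.

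Some clock genes varied much more than others between animals of 1 genotype and sex. In striatum the SD of the log2 deviations was 0.28 for Per2, 0.23 for Per1, 0.18 for Cry1 and 0.18 for Arntl, against 0.06 for Tef, 0.10 for Dbp, 0.10 for Npas2 and 0.10 for Per3. In cortex it was 0.32 for Per2, 0.26 for Per1 and 0.20 for Ciart, and 0.08 for Arntl. Among the 1000 genes nearest in level, 99.6% had a smaller SD than Per2 in striatum and 99.7% in cortex. In striatum the same share was 91.1% for Dbp, 88.6% for Per3, 88.0% for Npas2 and 58.0% for Tef. Dbp, Per3 and Npas2 thus also varied more than most genes of their level. Per2 was thus among the most variable genes of its level in both tissues.

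That variation was shared by the 2 tissues of an animal. For Per2 the striatal and cortical deviations correlated with a Pearson r of 0.91 and a Spearman rho of 0.89 over 48 animals (permutation p 1e-05 for each, the smallest these permutations can give, adjusted 2.5e-05 over 10 members). The r of Per2 was 0.88 without the 2 animals farthest out, 0.94 in early-coded and 0.90 in late-coded animals. Per1 gave r 0.91 and rho 0.85 with the same p-values (0.87 without 2 animals, 0.95 early-coded, 0.94 late-coded). Cry1 gave r 0.81 and rho 0.80 (0.77 without 2 animals, 0.84 early-coded, 0.70 late-coded), also at the smallest permutation p. Ciart gave r 0.69 and rho 0.70 (0.62 without 2 animals, 0.62 early-coded, 0.77 late-coded), again at that p. Animals high in 1 of these 4 repressors in striatum tended to be high in it in cortex. The r was 0.56 for Tef, 0.53 for Arntl, 0.49 for Nr1d1 and 0.46 for Dbp (adjusted permutation p 0.00016 to 0.0012), with rho of 0.55, 0.51, 0.47 and 0.43 in that order (adjusted permutation p 0.00016 to 0.0037). It was 0.42 to 0.58 in early-coded and 0.38 to 0.55 in late-coded animals for these 4 genes. Npas2 had r 0.25 and rho 0.23 and did not pass (permutation p 0.082 and 0.12). Per3 had r 0.53 and rho 0.41 (adjusted permutation p 0.00027 and 0.0042), and its r was 0.26 in early-coded and 0.74 in late-coded animals, and 0.35 without 2 animals.

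**Figure D4:**
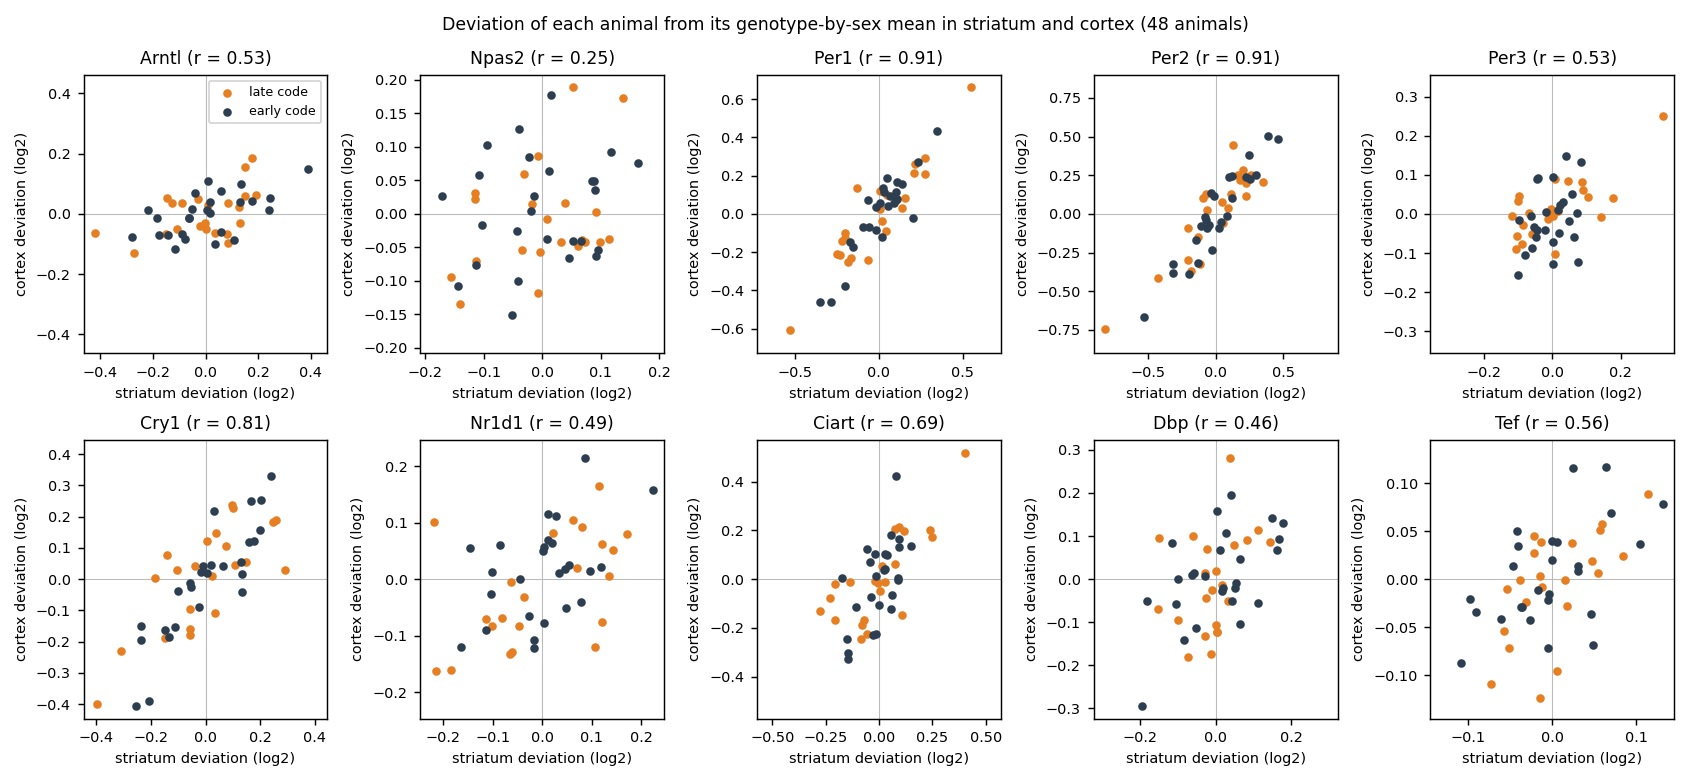
Deviation of each animal from the mean of its genotype and sex, in log2 units, in striatum (x) and cortex (y), 1 panel per gene and 48 points per panel (orange late code, dark early code), with Pearson r in the title. Per1 and Per2 lie close to a line (r 0.91 each) and Npas2 forms a cloud (r 0.25).

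Within a tissue, members varied together or oppositely. Of 45 pairs, 12 passed in striatum (8 positive, 4 negative) and 13 in cortex (8 positive, 5 negative), by a permutation test adjusted over the 45 pairs. The test shuffled deviations freely after genotype and sex means were removed, so its p-values are too small. Pairs with an adjusted p near 0.05 may therefore not hold. The 5 negative pairs in cortex had adjusted permutation p-values from 0.0235 to 0.0424. The closest pair in both tissues was Per2 and Cry1, 2 repressors, with r 0.81 and rho 0.77 in striatum and r 0.85 and rho 0.84 in cortex (permutation p 1e-05 each, adjusted 0.00018 and 0.00015). In striatum that r was 0.77 without the 2 farthest animals, 0.81 in early-coded and 0.81 in late-coded animals. Cry1 ran against Nr1d1 in striatum (r -0.78, rho -0.78, permutation p 1e-05 each, adjusted 0.00018 and 0.00015), with r -0.76 without 2 animals, -0.61 in early-coded and -0.81 in late-coded animals. In cortex the same pair had r -0.34 and did not pass (adjusted permutation p 0.051). Arntl ran with Per2 in striatum (r 0.68, rho 0.67, adjusted permutation p 0.00018 and 0.00015), with r 0.62 without 2 animals, 0.74 in early-coded and 0.63 in late-coded animals. It ran against its repressor Nr1d1 (r -0.50, rho -0.48, adjusted permutation p 0.0017 and 0.0030), with r -0.45 without 2 animals, -0.57 in early-coded and -0.27 in late-coded animals. In cortex these 2 pairs had r 0.23 and 0.17 and did not pass. The pairs that passed in both tissues were Per2 with Cry1, Per2 with Tef, Cry1 with Tef, Dbp with Tef and Per1 with Ciart. For Per1 with Ciart, r was 0.48 and rho 0.51 in striatum (adjusted permutation p 0.0028 and 0.0016), where r was 0.18 in early-coded and 0.57 in late-coded animals. In cortex that pair had r 0.47 and rho 0.48 (adjusted permutation p 0.0092 and 0.0095), where r was 0.27 in early-coded and 0.67 in late-coded animals. The difference of a correlation between tissues was not tested.

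**Figure D5:**
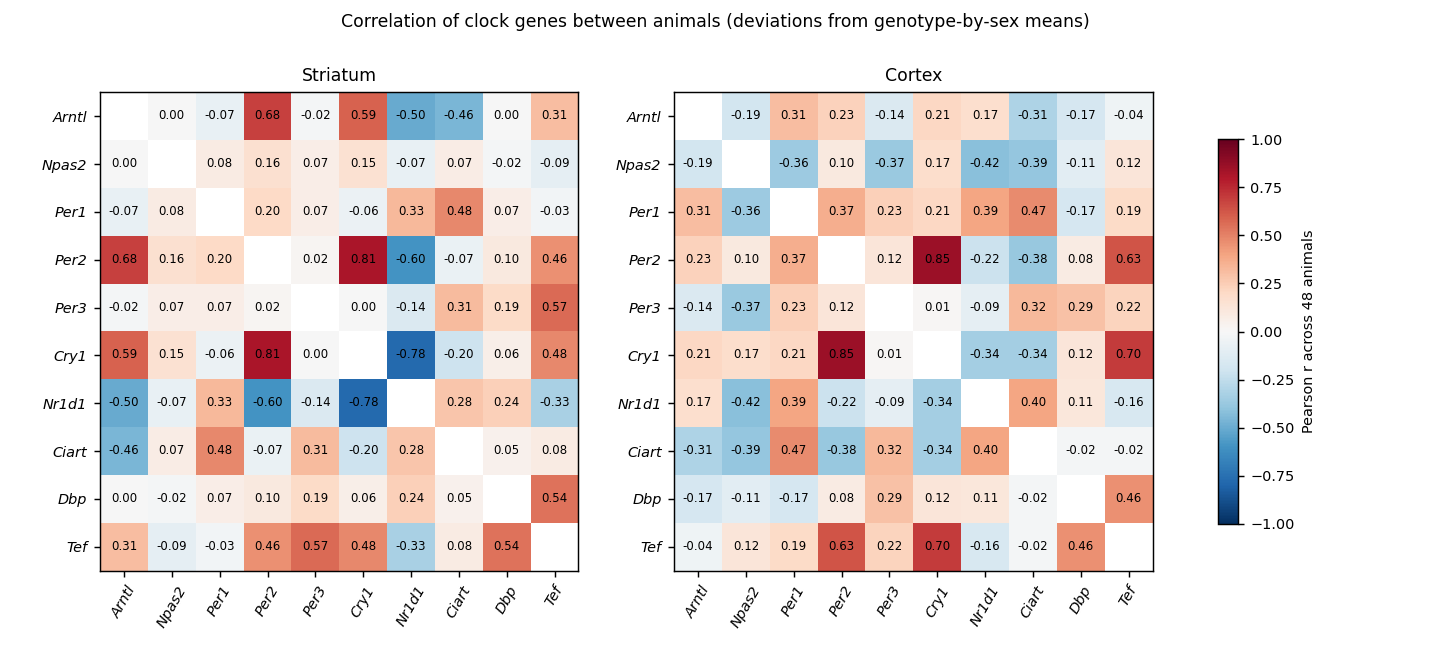
Pearson r of every pair of members across 48 animals in striatum (left) and cortex (right), on deviations from the means of genotype and sex; red is positive and blue negative. Per2 with Cry1 is the strongest positive pair in both panels (0.81 and 0.85), and Cry1 with Nr1d1 the strongest negative pair in striatum (-0.78).

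The genes outside the lists whose deviations were most like those of Dbp over the 48 striata were B4galt2 (r 0.76), Syndig1l (0.75), Map3k10 (0.74), Nrxn2 (0.73) and Cnih2 (0.71). In cortex they were Grik5 (0.73), B4galt2 (0.70), Sirt3 (0.70), Adarb1 (0.68) and Serp2 (0.68). For Arntl they were Zdhhc5 (0.84), Sybu (0.82), Osbpl3 (0.81), Pdp1 (0.80) and Tle4 (0.80) in striatum and Pdzd8 (0.67), 1700086L19Rik (0.64), Itch (0.62), Tjp1 (0.61) and Zfp790 (0.60) in cortex. These are descriptions over libraries that share their animals' RNA preparations, with no test.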

How the data were processed

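RNA-seq counts and FPKM values were read for 10 clock genes in 96 libraries. Per the labels' protocols, RNA was purified with an RNeasy kit and libraries were made with a stranded TruSeq protocol. Tools named in the submitters' processing notes are HTSeq 0.12.3, SAMtools 1.10 and STAR 2.7.5c, and builds GRCm38 and mm10, without their roles. The strand setting of the counting was not given in the sources used. The deposited counts are whole numbers per gene and library, not normalized. The authors' FPKM values equal the counts times a factor per gene and per library (0 of 18202 genes departed by over 1%), and 0 columns were left unused. Of 48795 genes, 48435 had an identifier in GENCODE M21.

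Counts were tested with edgeR 4.0.16 (limma 3.58.1, R 4.3.3): TMM scaling, filterByExpr by genotype, and a robust quasi-likelihood fit with genotype and sex as terms over the 48 libraries of a tissue, or over all 96 for tissues. Calls have a Benjamini-Hochberg adjusted p below 0.05 over all genes of a comparison; SE are edgeR fits' standard errors on the log2 scale. The edgeR code was also run on simulated data with known changes. Correlations used deviations of log2 CPM (prior count 2) from genotype-by-sex means and a two-sided permutation test with 100000 permutations (numpy 2.4.6, scipy 1.17.1). Lists' sums are of CPM.

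Groups follow the labels, which give 8 animals per genotype, whereas the design text states more per group. Nothing says that animals of 1 first number (23 in all) are independent, and p-values take animals as independent. The intraclass correlation of members' deviations within first numbers ran from -0.32 (Arntl in cortex) to 0.42 (Ciart in cortex). For Cry1 it was 0.35 in striatum and 0.34 in cortex. Permutation p-values of genes with such values may be too small. Both tissues of an animal carry its code: over 17976 genes the deviations of the 48 pairs correlated with a median of 0.161 (lowest 0.0605, 43 above 0.1), and since they come from the same animal they were treated as pairs in the blocked fit. Members, gene lists and tests were chosen with earlier results of these data known, and Sphk2 was added to the lists for its overlap with Dbp. A listed gene of clock protein turnover is not reported here, so no count is given for that list. The genes named are the members, Pms1, the listed genes called in the comparison described, and the 5 genes of at least 1 mean CPM most like Dbp and Arntl; Clock, Nr1d2 and Thra, not called, are named as relatives or neighbours of members. Alternatives were RLE scaling, library totals, no filter, DESeq2 1.42.0, limma on log2(FPKM + 0.1) and log2(FPKM + 1), genotype alone, the late code as a term, the first number of the code as a random block, each code class or sex alone, the animal as a block, and leaving out each animal.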

Additional observations from a re-analysis of the deposited data

Results flagged for a closer look

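Of 120 sets of 8 animals (a gene, a tissue and a genotype), 10 had 1 animal far from the rest, where chance alone flags about 1 in 20. Animals were high in both tissues for a pair of these genes. The Q140 animal 23-4 had 117 CPM of Per3 in striatum (group median 87.2) and 113 CPM in cortex (87.2). The Q140 Pms1 null animal 21-4 had 42.0 CPM of Ciart in striatum (30.5) and 46.2 CPM in cortex (29.8). Per1 was 269 CPM in the Q140 Pms1 null striatum of 27-3 (165). Nr1d1 was 133 CPM in the Q140 striatum of 8-2 (109) and low, 114 CPM, in the Pms1 null striatum of 16-4 (136). In cortex, Npas2 was 47.8 CPM in the WT animal 14-2 (40.2) and 47.8 CPM in the Q140 Pms1 null animal 17-2 (40.8), and Arntl 44.7 CPM in the Pms1 null animal 22-2 (37.1).

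The knock-in effect in striatum differed between Pms1 null mice and mice with both copies, by edgeR's test of the difference, for Ciart (0.42), Nr1d1 (0.38), Dbp (0.36) and Per3 (-0.23). In the fit without the animal as a block, it differed between striatum and cortex, in Q140 against WT, for Ciart (-0.61), Dbp (-0.54), Npas2 (-0.47), Nr1d1 (-0.25) and Tef (-0.23). With the animal as a block, 9 members passed there. Averaged over the 3 Pms1 backgrounds, the knock-in effect differed between striatum and cortex, again without the block, for Ciart (-0.46), Dbp (-0.42), Per1 (-0.33), Npas2 (-0.31), Arntl (-0.21), Nr1d1 (-0.17), Per3 (-0.16) and Tef (-0.14). With the block all 10 members passed.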

How the results depend on the processing

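Of 1732 refits of single called genes, 1655 kept the call, 77 lost it and 0 reversed. RLE scaling, DESeq2, the replicate block and early-coded animals alone lost 0 calls, late-coded animals alone lost 7 of 9 and library totals 7 of 65. Numbers below are members called. Pms1 null against WT in striatum gave 2, and 1 with no filter, with the late code as a term, with late-coded animals alone and with the random block. Q140 Pms1 null against Q140 in striatum gave 5, and 1 with late-coded animals alone. Q140 Pms1 het against Pms1 het in striatum gave 8, and 5 under library totals and both FPKM settings. The difference of the knock-in effect by Pms1 gave 4, and 2 with no filter. In cortex, Pms1 null against WT gave 2, 0 with the late code as a term and 1 with late-coded animals alone; Q140 Pms1 het against Pms1 het gave 0, and 1 with DESeq2; male against female gave 2, and 1 with the random block. With the replicate block (the animal, pairing the tissues) the tissue difference of the knock-in effect gave 9 in place of 5, and no member call was lost. Member pairs fell to 7 (early-coded), 4 (late-coded) and 6 (females) from 12 in striatum, and to 6 (early-coded), 5 (late-coded), 8 (females) and 6 (males) from 13 in cortex, with fewer animals in each. The other causes were not tested. Leaving out 1 animal gave 6 to 9 for Q140 against WT, 1 to 2 for Pms1 null against WT, 5 to 6 for Q140 Pms1 null against Q140, 6 to 9 for Q140 Pms1 het against Pms1 het, 4 to 5 for Q140 Pms1 null against Pms1 null and 2 to 4 for the difference by Pms1 in striatum, and in cortex 0 to 1 for Q140 Pms1 null against Q140, 0 to 1 for the mean over backgrounds and 2 to 3 for sex. Under library totals 79.8% of the genes called in striatal Q140 against WT were higher, where with TMM 2999 of 5909 were, and the median of all genes was 0.09; Per3, never called there, turned to 0.02. Library totals also moved the share of higher genes among those called by over 10 points in striatum for Q140 Pms1 het against Pms1 het (76.9% in place of 51.5%), Q140 Pms1 null against Pms1 null (69.9%, 50.5%), Pms1 null against WT (64.4%, 50.7%), the mean over backgrounds (77.5%, 53.0%) and sex (76.2%, 46.2%), for the tissue difference of the mean effect (75.9%, 48.7%), and in cortex for Q140 Pms1 het against Pms1 het (85.3%, 61.9%) and the mean over backgrounds (60.4%, 40.4%). Whether depth limits a member call was not tested.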
